A study of Mus musculus with 4 samples.

Results

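Snhg1 is a long noncoding RNA gene of mouse chromosome 19 that serves as a host for small nucleolar RNAs (snoRNAs), and the RNA intervals assigned to it in a map of binding by the R783H mutant of Trim71 are described here. They are all peaks that carry the gene name Snhg1 in the authors' table: 9 of 793 peaks, or 1.13% of the list. The gene was chosen by the number of peaks that carry its name, so that number is a description and not a finding.

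Trim71, a member of the TRIM-NHL proteins, binds and represses target messenger RNAs in early development, and the series deals with a mutation of it that causes hydrocephalus. HITS-CLIP crosslinks a protein to RNA in living cells, immunoprecipitates it and sequences the RNA fragments that come with it. All 4 libraries came from mouse embryonic stem cells of the ES-E14TG2a background that carried FLAG-Trim71 (R783H), grown in 2i medium with LIF, which contains the inhibitors CHIR99021 and PD0325901. The 2 CLIP libraries were made with the FLAG-M2 antibody and the 2 input libraries from the total RNA of the same kind of cells. No library of wild-type Trim71 or of untagged cells was analysed here, and the labels do not say whether the line is a single clone. Of 14 embryonic stem cell marker genes, 6 had a listed peak, among them Sox2, Zfp42 and Sall4. Others, such as Pou5f1 and Nanog, had none. None of 8 markers of other cell types had one. The list gives binding and not expression, and the share of all annotated genes with a peak is not given here. These counts are therefore only a description and do not check the cell type.

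Most snoRNAs of vertebrates lie in introns of host genes. They are released when the intron is spliced out and trimmed, while the exons of a noncoding host such as Snhg1 or Gas5 form a spliced RNA of their own. SnoRNAs of the box C/D class bind a set of core proteins and guide the methylation of ribose groups in ribosomal RNA. An interval on such a snoRNA gene can therefore mark the mature snoRNA, the excised intron or the unspliced host RNA, which share their sequence there.

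In the RefSeq annotation of GRCm38.p6, the counterpart of the mm10 build that the submitters' processing notes name, Snhg1 (gene 83673, a long noncoding RNA) spans 2840 bases, chr19:8723487-8726326. The gene begins with the 30 genomic bases shown here, on the plus strand, read from the RefSeq table of gene starts. Exon ends were not available, so whether the spliced RNA keeps all 30 is not known. The bases are given to mark where the host RNA starts, and capitals mark the longest unbroken run of C and T in the first 20 bases.
Snhg1 5′ end: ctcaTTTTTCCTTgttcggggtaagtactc
The run took up bases 5 to 13, a length of 9, and 4.20% of 32851 annotated gene starts, searched on the transcribed strand in the first 20 bases, held a run of C and T at least that long. The 2 annotated starts of Gas5, the other host described here, had longest runs of 3 and 5 bases, lengths reached by 76.8% and 32.8% of all starts. No listed peak lay on this stretch: the first Snhg1 peak began 507 bases downstream of the gene's start. The match of letters is a description and says nothing of a factor.

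The gene table places 8 snoRNA genes within the span of Snhg1, numbered here from 1 to 8 from the 5′ end. The first 7 are LOC115489078, LOC115489084, LOC115489083, LOC115489082, LOC115489081, LOC115489086 and LOC115489087, and the eighth is Snord22, a box C/D snoRNA also called U22. They are 65 to 126 bases long, separated by 148 to 266 bases, and together cover 620 bases, or 21.8% of the span. The table gives no strand and no exons, so strand was taken from the peaks, all of which were on the plus strand.

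All 9 Snhg1 peaks lay on these snoRNA genes, although the authors' table locates each of them in an unclassified exon. Of the 244 bases in the peaks, 241 (98.8%) fell within a snoRNA gene, and the other 3 lay directly before one. SnoRNAs 1, 2, 3, 5, 6 and 7 carried peaks, and snoRNA 4 and Snord22 carried none. The same count of 9 was obtained when at least 50% of the peak had to overlap and when the deposited start was counted from 0, and no peak with another gene name lay within the span. The last 670 bases of the gene, which hold Snord22, had no listed peak. The level of binding at the 2 snoRNAs without a peak is not known, since the authors' table holds values for listed peaks only.

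**Figure D1:**
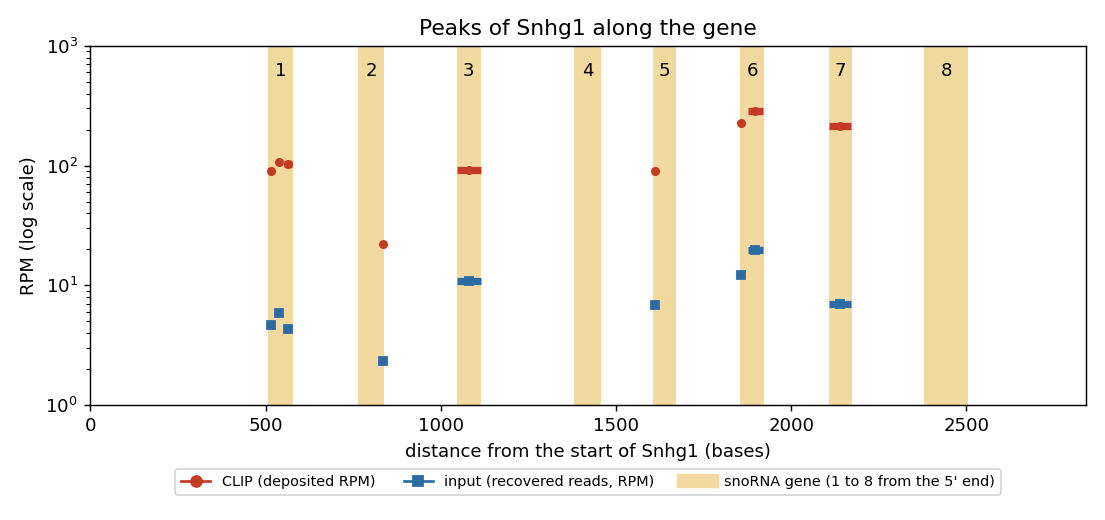
RPM on a log scale against the distance in bases from the start of Snhg1, with red bars and circles for the deposited CLIP value of each of the 9 peaks, blue bars and squares for the recovered input and tan bands for the 8 snoRNA genes. Every peak sits on a tan band, CLIP is above input at each, and bands 4 and 8 are empty.

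The authors' table does not separate the libraries, so no value has a replicate error. Each peak has a value in RPM (reads per 1000000 of a total that the header does not name) and a fold change of CLIP over input, which was read as log2. The RPM value is not divided by the width of the peak. From these values CLIP and input reads were recovered as whole numbers, which correspond to totals of 11000000 CLIP and 82160000 input reads. The 95% intervals of the log2 fold change were computed from them by the exact Clopper-Pearson method. They cover counting error only, and reads may include PCR copies. Intervals of peaks are given with both ends counted, as deposited.

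SnoRNA 1 (LOC115489078, chr19:8723993-8724064, 72 bases) carried 3 peaks, which covered 62.5% of it. The first, chr19:8723994-8724007, covered its bases 2 to 15 with 89.7 RPM from 987 CLIP reads against 378 input reads. The second, chr19:8724021-8724028, covered bases 29 to 36 with 106 RPM from 1168 CLIP and 476 input reads. The next, chr19:8724040-8724062, covered bases 48 to 70 with 103 RPM from 1132 CLIP and 356 input reads. The 3 peaks thus had similar RPM values from one end of the snoRNA to the other. Their widths were 14, 8 and 23 bases, so similar RPM does not mean similar reads per base. In the authors' deposited table, their log2 fold changes were 4.29 (interval 4.11 to 4.46), 4.20 (4.04 to 4.35) and 4.57 (4.40 to 4.75). The intervals of the last 2 peaks did not overlap, and that of the first overlapped both. The gaps between the peaks were 13 and 11 bases. A read that spans such a gap overlaps both neighbours, and whether it was counted in each is not given in the sources used here.

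SnoRNA 2 (LOC115489084, chr19:8724251-8724325, 75 bases) had a single peak of 2 bases, chr19:8724320-8724321, at its bases 70 and 71. This was the weakest of the gene, with 22.2 RPM from 244 CLIP reads against 191 input reads. Its log2 fold change in the deposited table was 3.25 (interval 2.98 to 3.54). It was also the narrowest interval of the whole list, where the median width was 33 bases.

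SnoRNA 3 (LOC115489083, chr19:8724532-8724601, 70 bases) was covered almost end to end by a peak of 67 bases, chr19:8724534-8724600, on 95.7% of its length. The peak held 91.8 RPM from 1010 CLIP reads, about as many as the peaks of snoRNA 1, but 889 input reads. Its log2 fold change in the deposited table, 3.09 (interval 2.95 to 3.22), was the lowest of the 9, and its interval overlapped only that of the peak on snoRNA 2.

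SnoRNA 4 (LOC115489082, chr19:8724868-8724943, 76 bases) had no listed peak. SnoRNA 5 (LOC115489081, chr19:8725092-8725156, 65 bases) had a peak of 12 bases at its 5′ end, chr19:8725091-8725102. It began 1 base before the annotated gene, or on its first base if the deposited start is counted from 0, and covered 16.9% of it. The peak had 90.5 RPM from 996 CLIP and 565 input reads, and a deposited log2 fold change of 3.72 (interval 3.57 to 3.87).

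SnoRNA 6 (LOC115489086, chr19:8725341-8725409, 69 bases) carried the most reads. Its first peak, chr19:8725339-8725349, started 2 bases before the annotated gene and reached its base 9, with 227.5 RPM from 2503 CLIP and 1004 input reads. Its second peak, chr19:8725363-8725406, covered bases 23 to 66 with 283.5 RPM from 3119 CLIP and 1620 input reads. The second peak had the highest RPM of the gene and ranked 11th of 793 in the list. Its deposited log2 fold change was the smaller, 3.85 (interval 3.76 to 3.93) against 4.22 (4.11 to 4.33) for the first, and these intervals did not overlap. Within this snoRNA the order by RPM was therefore the opposite of the order by enrichment. The first peak was 11 bases wide and the second 44, and RPM is not divided by width, so this is not an order by reads per base.

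SnoRNA 7 (LOC115489087, chr19:8725594-8725660, 67 bases) was covered from its first base to base 63 by a peak of 63 bases, chr19:8725594-8725656. The peak held 214.5 RPM from 2360 CLIP reads against 570 input reads. Its deposited log2 fold change of 4.95 (interval 4.82 to 5.09) was the highest of the gene, and its interval overlapped none of the other 8. It can be set beside the peak on snoRNA 5, which had nearly the same input (565 reads) but 996 CLIP reads. Snord22 (chr19:8725866-8725991, 126 bases), the longest of the 8 snoRNA genes, had no listed peak.

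**Figure D2:**
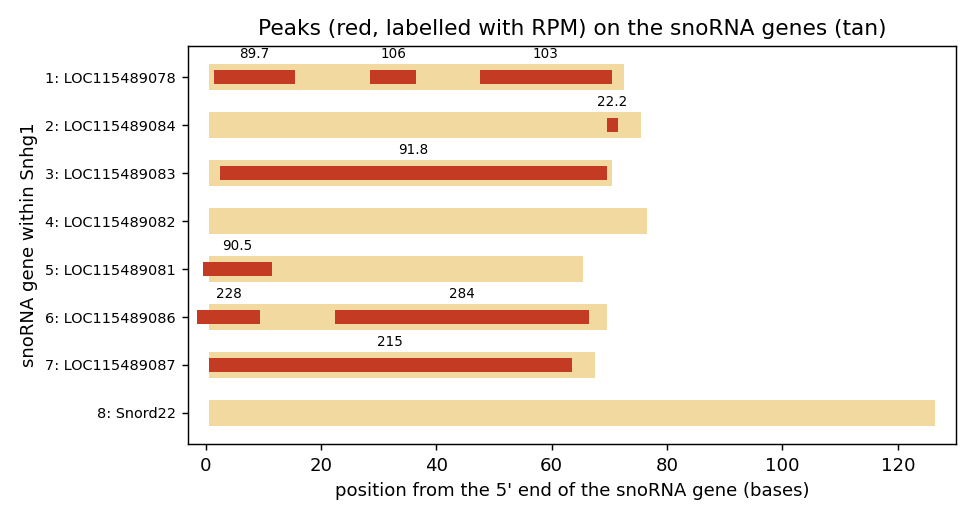
The 8 snoRNA genes of Snhg1 as tan bars drawn to scale from their 5′ ends, in bases, with the 9 peaks as red bars labelled with their deposited RPM. Peaks cover snoRNAs 3 and 7 almost whole, split snoRNAs 1 and 6 into 3 and 2 intervals, and touch only the 3′ end of snoRNA 2 and the 5′ end of snoRNA 5.

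Along the gene, CLIP RPM thus varied 12.8-fold between the weakest and the strongest peak, input 8.48-fold, and enrichment 3.65-fold. The lowest CLIP (22.2 RPM) and the lowest input (2.32 RPM) were both those of the 2-base peak on snoRNA 2. The other peaks ran from 89.7 to 283.5 RPM in CLIP and from 4.33 to 19.7 RPM in input. Peaks with more CLIP reads tended to have more input reads: across the 9 peaks, Pearson's r of the log2 reads was 0.83 and Spearman's rho 0.77. This is a description of 9 values from the same pooled libraries, several of which lie on the same snoRNA. The coefficients were not computed without the peak on snoRNA 2. Of the 36 pairs of peaks, 30 had counting intervals of the log2 fold change that did not overlap. Among the 4 pairs on the same snoRNA, this held for 2. The same count was not made for other genes or for the whole list, so it does not set Snhg1 apart. With no values per library, the differences between the Snhg1 peaks could not be set against the spread between replicates.

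All 9 peaks had more CLIP reads than input reads at equal depth (exact two-sided binomial test with Benjamini-Hochberg adjustment over 793 peaks, largest adjusted p = 1e-108). So did 100% of the list, in which the lowest log2 fold change was 2.04, and the test compares the pooled libraries. How the authors selected the list is not given in the sources used here. The lower bound of the interval was above a log2 fold change of 2, or 4-fold, for all 9 peaks, the lowest being 2.95. Over the whole list this was the case for 99.0% of the peaks, so it does not set Snhg1 apart.

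**Figure D3:**
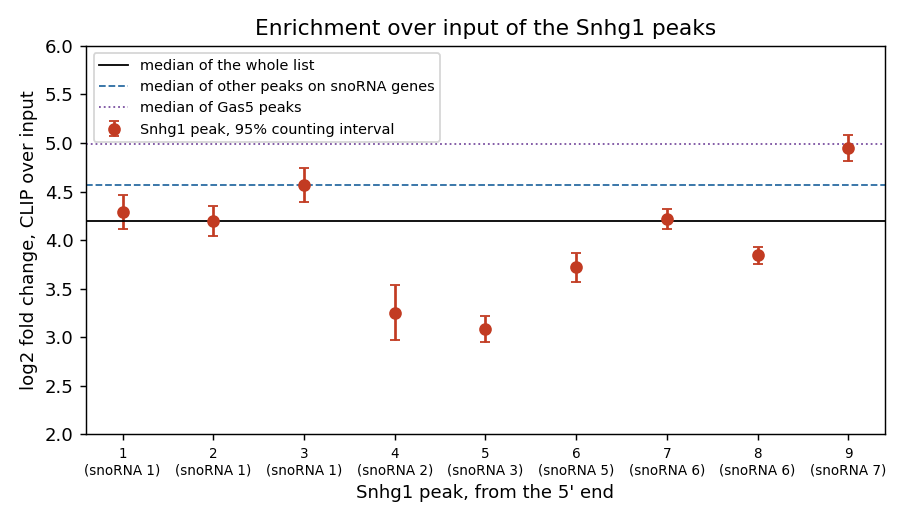
The log2 fold change of CLIP over input for each of the 9 Snhg1 peaks in order from the 5′ end, with 95% counting intervals, and horizontal lines at the medians of the whole list (4.20), of the other peaks on snoRNA genes (4.57) and of Gas5 (4.99). The peaks on snoRNAs 2 and 3 lie lowest and the peak on snoRNA 7 highest, next to the Gas5 line.

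Compared with the list, the Snhg1 peaks had high RPM values and a middling enrichment. Their median was 102.9 RPM against 8.36 RPM for the whole list, 12.3 times as high, and all 9 were above the median of the list. Their input was higher by a similar factor: the median was 565 recovered input reads (6.88 RPM of the input total) against 42 (0.511 RPM) in the list, or 13.5 times. The median log2 fold change of the Snhg1 peaks was 4.20, the same as that of the list, with 4 peaks above it and 4 below. By RPM the peaks ranked from 11th to 132nd of 793, and by log2 fold change from 215th to 700th. Together they held 5.53% of the summed RPM. Keeping only the peak of highest RPM on each Snhg1 snoRNA lowered this share to 3.71%. The peaks of all other genes were left as listed, so reads there can still be counted more than once in the total.

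The 86 other peaks in unclassified exons had a median of 19.8 RPM in CLIP, 1.39 RPM in input and a log2 fold change of 4.37. All 9 Snhg1 peaks were above the medians of CLIP and input, and their median RPM in CLIP was 5.19 times as high. In log2 fold change, 2 of them were above the median of the exon peaks and 7 were below it. These comparisons have no test, because the gene was chosen with its values known and peaks of one gene are not replicates.

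**Figure D4:**
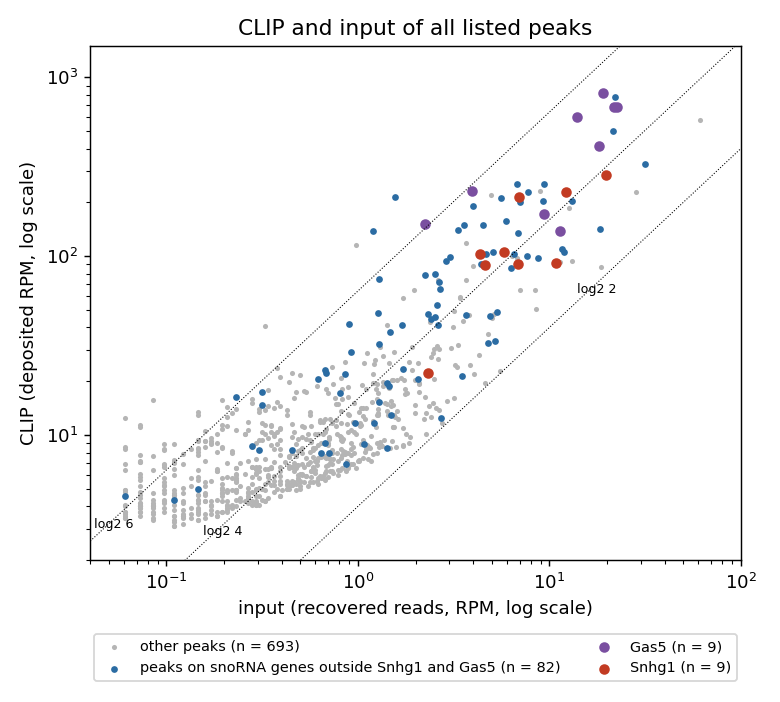
Deposited CLIP value in RPM against recovered input reads in RPM, both on log scales, for all 793 peaks. Snhg1 is in red, Gas5 in purple, peaks on other snoRNA genes in blue and the rest in grey. Dotted lines mark log2 fold changes of 2, 4 and 6. The Snhg1 peaks lie at high CLIP and high input near the line of 4, and the Gas5 peaks lie above most of them.

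Peaks on snoRNA genes were not restricted to Snhg1. In the whole list 99 peaks (12.5%) overlapped an annotated snoRNA gene by at least 1 base, among them 53 of the 95 unclassified-exon peaks (55.8%) and 34 of the 121 intronic peaks (28.1%). They touched 82 of the 1340 snoRNA genes of the table. The 90 such peaks outside Snhg1 had a median of 51.3 RPM in CLIP, 2.65 RPM in input and a log2 fold change of 4.57. Snhg1 peaks had more CLIP reads and more input than this median in 8 of 9 cases. In log2 fold change, 1 of the 9 was above this median and 7 were below it. The 9 peaks covered a median of 19.4% of their snoRNA each, with a range of 2.67 to 95.7%, against 61.2% for the other 90, in which 64 of 76 snoRNA genes carried a single peak. Of the Snhg1 peaks, 3 were centred in the first, 4 in the middle and 2 in the last part of the snoRNA when it was divided into 3 equal parts. For the other 90 peaks the counts were 20, 54 and 16.

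Gas5, the noncoding host on chromosome 1 that has the same number of peaks, also holds 8 annotated snoRNA genes. Of its 9 peaks, 8 lay on 5 of them, against 9 peaks on 6 in Snhg1. Its peaks had higher RPM values, from 138.6 to 823 RPM with a median of 415 RPM, and all 9 Snhg1 peaks were below that median. The median input was 13.9 RPM in Gas5 and 6.88 RPM in Snhg1. The log2 fold changes of Gas5 ranged from 3.61 to 6.09 with a median of 4.99, which none of the Snhg1 peaks reached. Of the Gas5 peaks, 5 were located by the authors in unclassified exons and 4 in introns, whereas all Snhg1 peaks had the first label. Both genes have a snoRNA with 3 separate peaks. In Gas5 it is LOC115487640, with 604.5, 686 and 683 RPM, so that the RPM values, not divided by width, again differed little along the snoRNA.

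Among the 66 listed genes, small RNA genes and pseudogenes aside, whose span includes an annotated snoRNA gene, a peak on the snoRNA was common but not the rule. In the 65 genes other than Snhg1, 66 of the 133 peaks that carry the gene's name (49.6%) lay on a snoRNA gene of the same gene. This leaves out peaks that the authors named after the snoRNA itself. Among all 146 peaks within the spans of these genes, whatever their name, 80 (54.8%) lay on a snoRNA gene. In Snhg1 it was 9 of 9 by either count. Having all peaks on snoRNAs was not particular to Snhg1: it also held for the 3 or 4 peaks each of Rpl4, Rpl7a and Rpl17, which encode ribosomal proteins, and of Hspa8, which encodes a chaperone. A peak was present on 67 of the 151 snoRNA genes (44.4%) of these 65 genes and on 6 of 8 (75%) in Snhg1. Snhg1 was chosen by its number of peaks, which bears on this share, so the 2 shares are not a like comparison. In single genes the share ran from 0% to 100%, with 75% in Rpl7a and 100% in Rpl17.

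A list of 44 genes known as snoRNA hosts was also examined by name. Of these, 25 had a peak and 20 had one on a snoRNA gene. The share of all annotated genes with a peak is not given here, so these counts are only a description. Their 75 peaks, those of Snhg1 and Gas5 included, had a median of 74.3 RPM and a log2 fold change of 4.30. Among the noncoding hosts of that list, Snhg12 had 1 peak on a snoRNA gene with 79 RPM and a log2 fold change of 5.13. Snhg4 had 1 on a snoRNA gene with 15.4 RPM and 3.57, and Snhg3 had 1 that lay on none, with 19.9 RPM and 3.88. Noncoding hosts outside that list ranged from low to high RPM. Rian, with 11 annotated snoRNA genes, had 1 peak on a snoRNA gene with 6.91 RPM and a log2 fold change of 3.00. 2410006H16Rik had a peak on a snoRNA gene with 71.8 RPM and a log2 fold change of 4.75, and another that lay on none with 186.9 RPM and 3.88. 1110038B12Rik had 1 on a snoRNA gene with 213.8 RPM and 7.09.

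Likeness to Snhg1 was measured over the 56 genes with at least 3 peaks as the distance in median log2 RPM and median log2 fold change. The nearest was Hspa8 (distance 0.24), with 3 peaks, a median of 105 RPM and a log2 fold change of 3.96. Rpl7a followed (0.69), with 4 peaks, 141 RPM and 4.71, and then Rpl17 (0.98), with 4 peaks, 179 RPM and 4.78. All peaks of these 3 genes overlapped snoRNA genes. The measure of likeness used RPM, which was itself higher on snoRNA genes (median 74.3 RPM against 7.59 RPM off them). The overlap is therefore not a separate point of likeness. The next gene, Malat1 (1.10), had 4 peaks and none on a snoRNA gene. The authors' table placed the peaks in 3′ UTRs for Hspa8, in introns for Rpl7a, and in introns and unclassified exons for Rpl17. By median RPM 6 of the 56 genes were above Snhg1, and by median log2 fold change 29 were.

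SnoRNAs occur in families of similar copies, and the alignment rules are not given in the sources used here, so the assignment of reads to one copy is uncertain. In the same way, a read on a snoRNA gene does not tell the mature snoRNA from the intron or the unspliced host RNA, and which of these the reads came from was not tested.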

How the data were processed

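CLIP with FLAG-Trim71 (R783H) was compared with input RNA of mouse embryonic stem cells in 1 deposited table of 793 peaks, with no values per library (0 columns were left out). Per the file headers, the authors gave each peak an RPM value and a fold change without its base. Per the submitters' processing notes, CASAVA 1.4, cutadapt, HISAT2 2.1.0, SAMtools and mm10 were used; the peak caller, its thresholds and the pooling of libraries are not given in the sources used here.

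All RPM values times 11 were whole numbers within rounding (100%), so that 11 reads make 1 RPM. The deposited fold change was read as log2: at a depth ratio of 7.47, it gave whole input reads in 100% of 720 peaks of small rounding error, against 32.4% of 364 peaks scored as a linear ratio and 13.7% of 736 as a natural log, each at its best ratio. Any constant added to the input before the ratio would be part of the recovered reads. Intervals, the binomial test and the overlaps (at least 1 base, starts counted from 1) were computed with Python 3.11.15, SciPy 1.17.1 and pandas 2.3.3, and tested on simulated data. Alternatives were another member rule, merging, a stricter list, other overlap rules, Wilson intervals and 1 added read.

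SnoRNA genes were those of type snoRNA in the RefSeq table of GRCm38.p6. Named were all Snhg1 peaks, the snoRNA genes in its span, Gas5 and the 3 genes nearest to Snhg1; genes named beyond these were chosen after their values were seen. The members and lists were chosen with earlier results of these data known.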

Additional observations from a re-analysis of the deposited data

How the results depend on the processing

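Merging intervals within 50 bases turned the 9 peaks into 6, one for each snoRNA, and lowered their share of the summed RPM from 5.53% to 4.30%. The peak of highest RPM on each Snhg1 snoRNA alone, an alternative chosen after seeing the data, gave 3.71%. There the rest of the list was left unmerged, so the 2 shares have different totals. The better 50% of the list by fold change held 4 of the 9 peaks, by construction of that list. Requiring the whole interval within the snoRNA gene, also chosen after seeing the data, left 7 of 9 peaks. An overlap of 50% of the peak, starts counted from 0 and membership by position each left the count at 9. One added read moved no log2 fold change by more than 0.003, and Wilson intervals left all 9 peaks above a log2 fold change of 2. No paired analysis was possible because libraries are not separated in the deposited table, and leaving out a replicate and fits per library were not run for the same reason. Counting error gave half-widths of 0.0873 to 0.28 for the log2 fold changes; the weakest peak, with 244 CLIP reads, was the least precise.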

Other observations

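The protein-coding genes on either side of Snhg1, Slc3a2, which encodes a subunit of amino acid transporters, and Wdr74, had no listed peak. Outside Snhg1, 12 snoRNA genes carried more than one peak: 10 had 2 peaks and 2 had 3.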
